A study of Drosophila melanogaster with 40 samples.

Results

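Acute exercise was compared with rest in the legs of 7-day-old male flies of a strain with deletions of the inducible Hsp70 genes. All features were described across the 4 exercised and the 4 untreated libraries of this strain, 8 of the 40 libraries of the study. Libraries were chosen by their column names and labels alone. The strain, called Hsp70-null here, carries both Df(3R)Hsp70A and Df(3R)Hsp70B on a w1118 background, and the labels list 6 genes as deleted in exercised and untreated flies alike (Hsp70Aa, Hsp70Ab, Hsp70Ba, Hsp70Bb, Hsp70Bbb and Hsp70Bc). The exercised flies were untrained, exercised for 2 h and had their legs taken right afterwards. The untreated flies of the same age did not exercise. The same 2 groups in w1118, with 4 libraries each, served as the strain that keeps Hsp70. Each library came from the legs of a pool of 15 flies, and the labels do not say whether pools came from separate cultures, so p-values measure the spread between these pools. Whole legs were used, so RNA of muscle and of the other leg tissues was measured together.

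In flies, as in mammals, a bout of activity quickly raises a small group of early response genes, many of them transcription factors reached by calcium, ERK and JNK signalling. Hr38 belongs to that group. It is the fly member of the NR4A nuclear receptors and is used as a mark of recent neuronal activity. Heat stress, and in some settings muscle work, raises chaperone genes through the heat shock factor, and Hsp70 is the main inducible chaperone of the fly.

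The deletions could be checked in the counts. Summed over the 5 deleted genes other than Hsp70Bb, the exercised Hsp70-null libraries held 1, 0, 1 and 2 counts, and the untreated Hsp70-null libraries held 0 in each. The same 5 genes held 45, 107, 95 and 366 counts in exercised w1118 libraries and 14, 28, 27 and 145 in untreated w1118 libraries. Hsp70Bb was counted 30, 13, 7 and 158 times in exercised Hsp70-null libraries and 36, 32, 18 and 38 times in untreated ones, although the labels list it as deleted. In w1118 it was counted 21, 83, 87 and 258 times in exercised libraries and 10, 13, 16 and 114 times in untreated libraries, so its counts overlapped between the strains. The source of these reads was not tested. In w1118, which keeps the copies of Hsp70, their near identity makes the assignment of reads among them uncertain.

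Total counts of the 8 libraries were 22087719 to 29215993. The 13 leg muscle markers were each above 1 CPM (counts scaled to the library total) in all 8, and they summed to 26798 to 28852 CPM in exercised and 24197 to 31722 CPM in untreated libraries. Untreated replicate 2 stood apart in testis RNA. With bol left out, because it was at 153 to 321 CPM in all 40 libraries, 38 testis markers summed to 12.0, 8.74, 8.43 and 11.8 CPM in exercised libraries. The sums in untreated libraries were 33.8, 4027, 33.2 and 12.3 CPM. Of the full list of 39 testis markers, 36 were above 1 CPM in untreated replicate 2, against 4 in each exercised library and 13, 14 and 5 in the other untreated libraries. Eye marker sums were 3461, 982, 1047 and 655 CPM in exercised libraries and 1028, 376, 795 and 8109 CPM in untreated libraries. Gut marker sums were 1216, 1230, 1083 and 7479 CPM in exercised libraries and 824, 474, 616 and 1982 CPM in untreated libraries. Accessory gland marker sums stayed at 0.292 to 1.22 CPM in exercised libraries and were 55.5, 9.83, 1.07 and 0.282 CPM in untreated libraries. In RNA of whole legs, fewer cells of a type and less RNA per cell cannot be told apart.

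**Figure D1:**
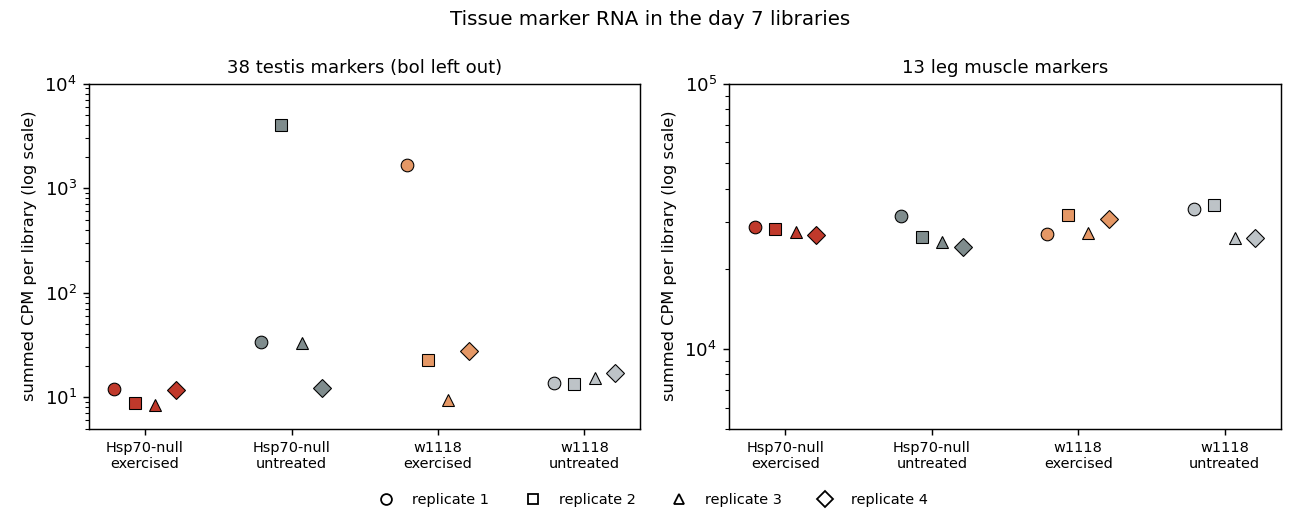
Summed CPM of 38 testis markers (left, bol left out) and 13 leg muscle markers (right) in each day 7 library, on log axes, with a symbol for each replicate number. Untreated Hsp70-null replicate 2, at 4027 CPM, and exercised w1118 replicate 1, at 1660 CPM, lie far above the other libraries in the testis panel, while the leg muscle sums lie close together.

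Exercise changed few features past the threshold in Hsp70-null legs. Of 12939 features tested, 6 were called, which is 0.0464%, with 5 higher (0.0386%) and 1 lower (edgeR quasi-likelihood test, adjusted p under 0.05 by Benjamini-Hochberg). Unadjusted p-values under 0.05 were far more frequent, with 448 features higher and 1530 lower, against 647 expected by chance over both directions. Without untreated replicate 2 the calls were 2 of 13133 features, or 0.0152%, both among the 6. In that fit 246 features were higher and 303 lower at an unadjusted p under 0.05. These 549 were fewer than the 657 expected by chance. DESeq2 without that replicate called 86 features, 17 higher and 69 lower. The count also moved with other libraries: it was 3, 2, 2 and 2 without exercised replicates 1, 2, 3 and 4, 43 and 25 without untreated replicates 1 and 4, and 26 without exercised w1118 replicate 1, which shares the fit. For features with a mean of at least 5 CPM, the 95% interval of the log2 fold change reached a median of 0.23 to either side, and for lower features 1.03.

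Hr38 showed the clearest change. It was at 73.3, 68.2, 75.3 and 70.0 CPM in exercised legs and at 21.7, 26.0, 21.5 and 20.8 CPM in untreated legs. The groups were far apart, and the means were 71.7 ± 3.17 CPM in exercised and 22.5 ± 2.34 CPM in untreated legs (SD, n = 4 each). The log2 fold change was 1.67 (SE 0.23, edgeR adjusted p = 0.000345), a 3.19-fold rise, and without untreated replicate 2 it was 1.75 (adjusted p = 0.00147). Over the other 32 libraries of the study, from untreated or trained flies of 7 to 47 days, Hr38 spanned 8.75 to 33.5 CPM, below each of the 8 libraries of acutely exercised flies of both strains. Hr38 lies on 2L at 20683462 to 20714588 (Ensembl annotation of BDGP6.54).

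CG3764 was the other feature called both with and without untreated replicate 2. Its level was 93.6, 84.8, 94.2 and 84.7 CPM in exercised legs and 65.2, 50.1, 55.2 and 62.6 CPM in untreated legs. Each exercised library was above each untreated one, with a log2 fold change of 0.62 (SE 0.09, adjusted p = 0.00134) and 0.55 (adjusted p = 0.0243) without replicate 2. It lies on 3L at 16994717 to 17012565 and overlaps mir-2500 on the same strand. Its call was lost when the 8 libraries were fitted alone (adjusted p = 0.263).

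The 3 other features called higher are regulators of signalling and transcription. Without untreated replicate 2 each of these edgeR calls was lost, with log2 fold changes of 0.52 for CenG1A, 0.68 for sty and 0.46 for Mrtf, while DESeq2 (adjusted p of 0.000204, 0.00139 and 0.00164) and voom (0.00419, 0.034 and 0.0344) called all 3. Without that replicate edgeR also lost all 3 with RLE scaling (adjusted p of 0.0993, 0.218 and 0.218) and in the 7 libraries alone (0.716, 0.434 and 0.327). CenG1A, an Arf GTPase-activating protein of the centaurin family, was at 171, 196, 223 and 195 CPM in exercised legs and at 144, 137, 124 and 143 CPM in untreated legs. The groups did not overlap, and the log2 fold change was 0.52 with and without replicate 2 (SE 0.09, adjusted p = 0.019 with it and 0.109 without). sty (sprouty), a feedback inhibitor of receptor tyrosine kinase signalling, was at 139, 131, 159 and 163 CPM in exercised legs and at 99.0, 92.6, 94.4 and 84.3 CPM in untreated legs. It too was higher in every exercised library, by 0.68 on the log2 scale (SE 0.14, adjusted p = 0.0466, and 0.288 without replicate 2). Mrtf, the coactivator of serum response factor, was at 105, 104, 97.4 and 98.7 CPM in exercised legs and at 77.5, 68.6, 71.0 and 71.8 CPM in untreated legs. Its groups were tight and did not overlap, with a log2 fold change of 0.49 (SE 0.10, adjusted p = 0.0417, and 0.288 without replicate 2).

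These 3 genes are on 2L at 13835564 to 13898712 (CenG1A), on 3L at 3401153 to 3424935 (sty) and on 3L at 2717615 to 2766536 (Mrtf). Of 23 other settings tried, Hr38 was called in 23, CG3764 in 21, CenG1A in 11, sty in 9 and Mrtf in 9. Single libraries other than untreated replicate 2 also ended calls. Leaving out exercised replicate 1 ended those of sty and Mrtf, and leaving out exercised replicate 2, 3 or 4 ended those of CenG1A, sty and Mrtf. Leaving out untreated replicate 3 ended those 3 as well, with adjusted p of 0.0532 to 0.0539, and leaving out untreated replicate 4 ended that of sty (adjusted p = 0.0525). Under the replicate block Mrtf had an adjusted p of 0.0737.

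The only feature called lower was CG15711, on 2R at 16363551 to 16365895. It had no count in the 4 exercised libraries and was at 0.349, 10.4, 0.217 and 0.172 CPM in untreated legs. Nearly all of it was in untreated replicate 2, the library with the testis markers, and without that library the untreated mean was 0.246 CPM. Against the highest floor of the exercised libraries, 0.165 CPM, the untreated mean gives an at least 16.9-fold lower level in exercised legs (edgeR adjusted p = 0.019). That bound rests on untreated replicate 2, since the mean of 0.246 CPM without it lies near the floor. Without untreated replicate 2 the edgeR adjusted p was 0.296, while DESeq2 gave 0.0472 and voom 0.876. The call was also lost without each exercised replicate in turn (adjusted p of 0.0855 to 0.107) and under the replicate block (0.075).

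**Figure D2:**
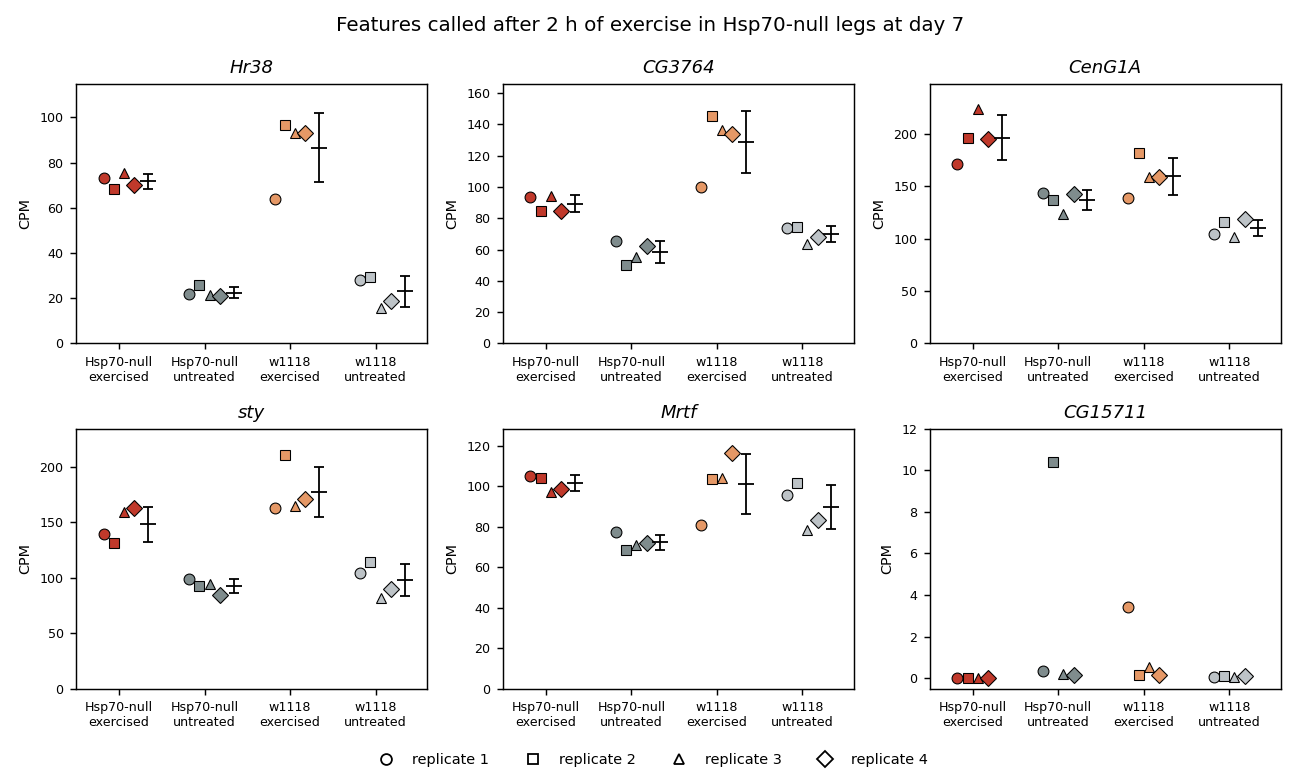
CPM of the 6 called features in the exercised and untreated day 7 libraries of both strains, with a symbol for each replicate number and, except for CG15711, the mean and SD of each group. Hr38, CG3764, CenG1A and sty separate exercised from untreated legs in both strains, and Mrtf does so in Hsp70-null alone. CG15711 is carried by untreated Hsp70-null replicate 2, at 10.4 CPM, and exercised w1118 replicate 1, at 3.43 CPM.

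Ranges of exercised and untreated libraries did not overlap for 227 features that were higher (1.75% of those tested) and 324 that were lower (2.5%). Of these, 192 higher and 165 lower features had a mean of at least 5 CPM. Of the 324 lower features, 167 were at least 10 times higher in untreated replicate 2 than in any other of the 8 libraries. For those, most of the difference in mean came from 1 library.

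Among the higher features with no overlap, the next by p-value after the called ones were a receptor and a transporter. Pvr, the fly receptor for PDGF- and VEGF-like ligands, was at 175, 174, 162 and 171 CPM in exercised legs and at 146, 131, 139 and 137 CPM in untreated legs. The difference of 0.30 on the log2 scale (SE 0.06) missed the threshold with an edgeR adjusted p of 0.0575. Pvr was called under the replicate block (adjusted p = 0.016), by DESeq2 (0.000883), by voom (0.0462) and without untreated replicate 1 (0.032). chk (chaski), a monocarboxylate transporter, was at 382, 369, 424 and 385 CPM in exercised legs and at 311, 288, 275 and 253 CPM in untreated legs, a log2 difference of 0.47 (SE 0.10, edgeR adjusted p = 0.0688). It was called by DESeq2 (adjusted p = 0.00118), by voom (0.0231) and without untreated replicate 1 (0.0356). CG45092 overlaps chk on the same strand and had the same counts, so the pair is 1 measurement.

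The lower features named by the same rule, with no overlap and a mean of at least 5 CPM, were not called by edgeR with all libraries. Pol32, a DNA polymerase delta subunit, was at 5.48, 4.46, 5.50 and 5.14 CPM in exercised legs and at 6.19, 6.81, 6.93 and 7.86 CPM in untreated legs (log2 fold change -0.43, SE 0.10, adjusted p = 0.0821). CG9616 was at 2.93 to 4.77 CPM in exercised and 5.75 to 11.9 CPM in untreated legs, and CG1172 at 22.5 to 24.4 CPM in exercised and 24.7 to 28.1 CPM in untreated legs (adjusted p = 0.11 for both). Without replicate 2 their log2 differences were -1.19 for CG9616 and -0.15 for CG1172, against -1.07 and -0.18 with it. Uch-L5, a deubiquitinase of the proteasome, was at 9.45 to 10.7 CPM in exercised legs and at 13.2, 25.2, 12.3 and 12.7 CPM in untreated legs. Its log2 difference of -0.64 was -0.33 without replicate 2. The overlapping pair CG42559 and CG42560 had identical values, no count in exercised legs and 48.5 CPM in untreated replicate 2, against at most 0.303 CPM in the other untreated libraries. COX4L, a relative of a cytochrome oxidase subunit, and Mst84Dc, a male-specific transcript, behaved likewise, at 48.5 and 106 CPM in untreated replicate 2. Without untreated replicate 1 edgeR called Pol32 (adjusted p = 0.0363), CG9616 (0.0495) and the pair CG42559 and CG42560 (0.0383). DESeq2 called Pol32 (adjusted p = 0.00718), CG9616 (0.0117), CG1172 (0.0201) and Uch-L5 (0.0311) with all libraries. Without untreated replicate 2 DESeq2 gave them adjusted p of 0.0274, 0.011, 0.333 and 0.83.

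The testis RNA of untreated replicate 2 reached far beyond the marker list. The markers with the most CPM there were the sperm leucyl aminopeptidases S-Lap1, S-Lap7, loopin-1 and S-Lap2, at 888, 592, 350 and 290 CPM. In the other untreated libraries none of these 4 exceeded 4.40 CPM, in exercised libraries none exceeded 0.910 CPM, and S-Lap2 had no count after exercise. At least 10-fold excess in untreated replicate 2 over each of the other 7 libraries was seen in 1015 features, 7.84% of those tested, including 29 of 33 testis markers tested. That choice by itself makes all 1015 lower in the exercised group. They made up 1009 of the 1978 features with an unadjusted p under 0.05 (51.0%). Whether testis RNA touched the others was not tested, but 394 of the 1978 kept an unadjusted p under 0.05 without the library.

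**Figure D3:**
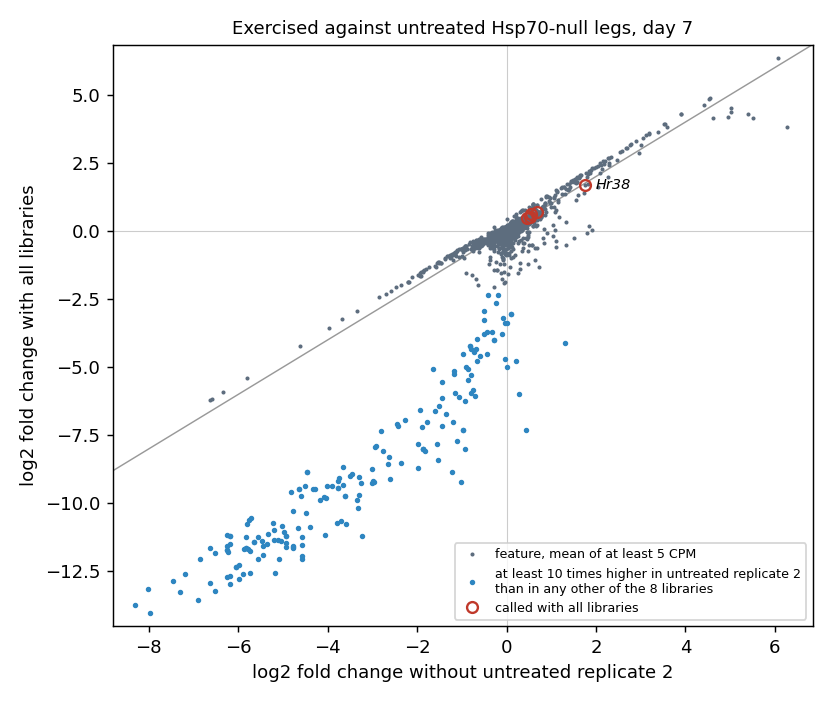
Log2 fold change of exercised over untreated Hsp70-null legs with all libraries (vertical) against that without untreated replicate 2 (horizontal), for features with a mean of at least 5 CPM. Features at least 10 times higher in that replicate than in any other library (blue) form a separate arm, whose lower values follow from that choice. The called features other than CG15711, which is under 5 CPM, lie near the line of equal values.

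Early response genes were mostly slightly higher after exercise. Of 21 activity-regulated genes tested, 20 were higher, 1 was called (Hr38) and the median log2 fold change was 0.14, against 0.00 over all features. Over all features 50.3% were higher. Most other lists leaned higher as well, such as calcium handling (94.7% higher, median 0.14) and insulin and FOXO (92.9%, median 0.16). The antimicrobial peptide (15.8%) and proteasome (29.0%) lists leaned lower. At an unadjusted p under 0.05, 8 of the 21 were higher, against 448 of all 12939 features, and the ranges of 6 did not overlap, against 1.75% of all features. The following examples were chosen after their values were seen. Jra, the fly Jun, was at 72.1, 75.7, 67.9 and 67.7 CPM in exercised legs and at 55.3, 61.2, 56.2 and 65.3 CPM in untreated legs, and sr (stripe), the EGR homolog, at 30.5 to 34.4 CPM in exercised and 22.9 to 28.6 CPM in untreated legs. puc, the phosphatase that limits JNK, was at 54.1 to 62.5 CPM in exercised and 39.6 to 49.8 CPM in untreated legs. Each of these 3 had an adjusted p of 0.11. The ETS factor Ets21C was at 6.01 to 6.67 CPM in exercised and 3.77 to 4.99 CPM in untreated legs (adjusted p = 0.192), while the ranges of the ERK phosphatase Mkp3 overlapped. kay, the fly Fos, was at 865 ± 42.7 CPM in exercised and 841 ± 133 CPM in untreated legs (SD, n = 4 each).

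Without untreated replicate 2, 18 of the 21 activity-regulated genes were higher, with a median of 0.10, and 8 had an unadjusted p under 0.05. Of the 12939 features, 48.9% were then higher and 539 had an unadjusted p under 0.05. In w1118, 3 of the list were called and the median was 0.07.

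No heat shock gene was called in Hsp70-null legs, where 0.0464% of all features were called and 50.3% were higher. Of 19 chaperone genes tested, 14 were higher, 2 at an unadjusted p under 0.05, with a median of 0.08. The small heat shock protein l(2)efl was at 324, 452, 514 and 445 CPM in exercised legs and at 226, 267, 270 and 365 CPM in untreated legs. Only the lowest exercised library overlapped the untreated range, and the log2 difference was 0.62 (SE 0.20, adjusted p = 0.11). Hsp68, a close relative of Hsp70, was at 31.2, 45.8, 47.3 and 95.3 CPM in exercised legs and at 27.4 to 41.9 CPM in untreated legs. Exercised replicate 4 was the highest and exercised replicate 1 lay within the untreated range (log2 difference 0.68, SE 0.38, adjusted p = 0.419). Hsp26, a small heat shock protein, was at 84.8 CPM in exercised replicate 4, 31.2 to 43.0 CPM in the other exercised libraries and 35.4 to 54.2 CPM in untreated ones. The cochaperone DnaJ-1 was at 340 CPM in exercised replicate 4, 173 to 209 CPM in the other exercised libraries and 170 to 256 CPM in untreated ones. For Hsp26 and DnaJ-1 no other exercised library exceeded the untreated range. Hsp83, the fly Hsp90, was at 1369 CPM in exercised replicate 4, against 722 to 899 CPM in the other exercised and 922 to 1095 CPM in untreated libraries. Hsp27 was at 20.8 CPM in exercised replicate 4 and at 22.1 CPM in untreated replicate 2, and at 3.75 to 7.54 CPM in the other 6.

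Exercised replicate 4 was also the library with the most Hsp70Bb counts and the highest gut marker sum. Without it the log2 differences of Hsp26, DnaJ-1 and Hsp70Bb were -0.17, -0.13 and -0.90. The part of gut RNA in these values was not tested. In w1118, 2 heat shock genes were called, Hsp22 and CG4456, against 0.402% of all features, with a median of 0.25 over the list. Each of the 2 had a log2 fold change of 0.9 in w1118 and 0.14 in Hsp70-null. Such matched values can come from shared reads, so the pair may be 1 measurement, which was not tested.

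Genes of energy sensing and insulin signalling leaned higher, as most of the other lists did, with no call. Over all features 0.0464% were called and 50.3% were higher. At an unadjusted p under 0.05, 448 of 12939 were higher and 1530 lower. Of 14 energy sensing genes tested 11 were higher (median 0.15), and of 14 insulin and FOXO genes 13 were higher (median 0.16), with 5 and 7 of them higher, and 1 energy sensing gene lower, at an unadjusted p under 0.05. Thor, the translation repressor 4E-BP and a FOXO target in both lists, was at 433, 548, 566 and 502 CPM in exercised legs and at 328, 310, 359 and 330 CPM in untreated legs. The groups did not overlap, yet the log2 difference of 0.63 (SE 0.21) had an adjusted p of 0.113. Pdk1, the kinase that activates Akt, was at 222 to 238 CPM in exercised legs and at 200, 169, 196 and 198 CPM in untreated legs, lowest in replicate 2 (adjusted p = 0.111). Sesn, the fly Sestrin, chosen after its values were seen, was at 264 to 317 CPM in exercised and 205 to 253 CPM in untreated legs (log2 difference 0.34, adjusted p = 0.11). It shares its strand with the overlapping CG46429. Without untreated replicate 2, 10 of 14 genes in each of these lists were higher, with medians of 0.10 and 0.11, and 2 energy sensing and 3 insulin and FOXO genes had an unadjusted p under 0.05. Over all features 48.9% were then higher.

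No muscle or mitochondrial gene on the lists was called. Of all features tested only 0.0464% were called, and 50.3% were higher. Of 49 respiratory complex subunits, 43 were higher with a median of 0.06, of 30 sarcomere genes 24 with a median of 0.08, and of 19 calcium handling genes 18 with a median of 0.14. In w1118 the calcium handling list had 4 of 19 higher and a median of -0.07. The edgeR interaction test called 0 of the 19 for a strain difference, with 0 at an unadjusted p under 0.05. Myosin heavy chain, Mhc, was at 6374 ± 365 CPM in exercised and 6043 ± 1376 CPM in untreated legs (SD, n = 4 each), and the ATP synthase subunit ATPsynbeta at 4654 ± 643 CPM in exercised and 4141 ± 805 CPM in untreated legs. These means lay within the spread between libraries. The sodium pump subunit Atpalpha and the thick filament protein Mf differed by 0.12 (SE 0.09) and 0.18 (SE 0.10) on the log2 scale.

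Carbohydrate and lipid lists held no call, beside 0.0464% called and 50.3% higher over all features. Of 17 glycolysis genes 13 were higher (median 0.05), of 13 trehalose and glycogen genes 7 (median 0.03), and of 21 lipid genes 16 (median 0.09), or 11 with a median of 0.00 without untreated replicate 2. Aldolase, Ald1, was at 6436 ± 649 CPM in exercised and 5705 ± 750 CPM in untreated legs (SD, n = 4 each). Ldh, lactate dehydrogenase, was at 16.4 to 24.8 CPM in exercised legs and at 18.7, 23.0, 55.5 and 23.0 CPM in untreated legs, high in untreated replicate 3 alone (adjusted p = 0.214). Pglym87 of the glycolysis list was at 67.2 CPM in untreated replicate 2 and at most 0.392 CPM in the other 7.

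Antimicrobial peptide genes formed the list with the lowest median. Of 19 tested, 16 were lower and none was called, with a median of -1.16, and of -1.47 without untreated replicate 2. Over all features 50.3% were higher and 0.0464% were called. Untreated libraries were uneven. Drosocin, Dro, was at 3.97, 20.7, 7.25 and 4.91 CPM in exercised legs and at 3.27, 0.545, 35.3 and 159 CPM in untreated legs. Defensin, Def, was at 10.3 to 12.6 CPM in exercised legs and at 40.8, 6.85, 19.2 and 35.1 CPM in untreated legs (adjusted p = 0.246). AttD, an attacin, was the member with no overlap, at 0.227 to 0.441 CPM in exercised legs and at 2.22, 1.04, 11.2 and 1.16 CPM in untreated legs (log2 difference -3.44, SE 0.90, adjusted p = 0.11). BomS2, a bomanin, was at 572 ± 146 CPM in exercised and 508 ± 203 CPM in untreated legs, and Drs, drosomycin, at 100.3 ± 49.7 CPM in exercised and 132 ± 97.7 CPM in untreated legs (SD, n = 4 each). Dro, Def and AttD were chosen after their values were seen.

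No clock gene was called, and of 12 tested 11 were higher with a median of 0.07. Over all features 0.0464% were called and 50.3% were higher. tim, a core clock gene, was at 230, 203, 241 and 309.8 CPM in exercised legs and at 119, 240.2, 106 and 293 CPM in untreated legs, so untreated replicates 1 and 3 were low. vri, the clock repressor that also belongs to the activity-regulated list, was at 256 to 310.0 CPM in exercised legs and at 174, 244, 168 and 269.6 CPM in untreated legs, low in the same 2 libraries. The hour at which each library was taken is not in the labels, and its part was not tested.

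The remaining lists held no call, beside 0.0464% called and 50.3% higher over all features. Of 23 antioxidant genes 15 were higher (median 0.05), of 21 autophagy genes 16 (0.07), of 15 unfolded protein response genes 10 (0.02, or 6 and 0.00 on the negative side without untreated replicate 2), of 13 octopamine and cAMP genes 11 (0.08), of 10 Turandot and JAK-STAT genes tested 8 (0.16), and of 31 proteasome genes 9 (-0.03, or 4 higher with RLE scaling). Malic enzyme, Men, was at 990 to 1230 CPM in exercised legs and at 670, 638, 1055 and 954 CPM in untreated legs (adjusted p = 0.117). Atg17, of the complex that starts autophagy, was at 129 to 143 CPM in exercised and 98.9 to 129 CPM in untreated legs (adjusted p = 0.151).

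**Figure D4:**
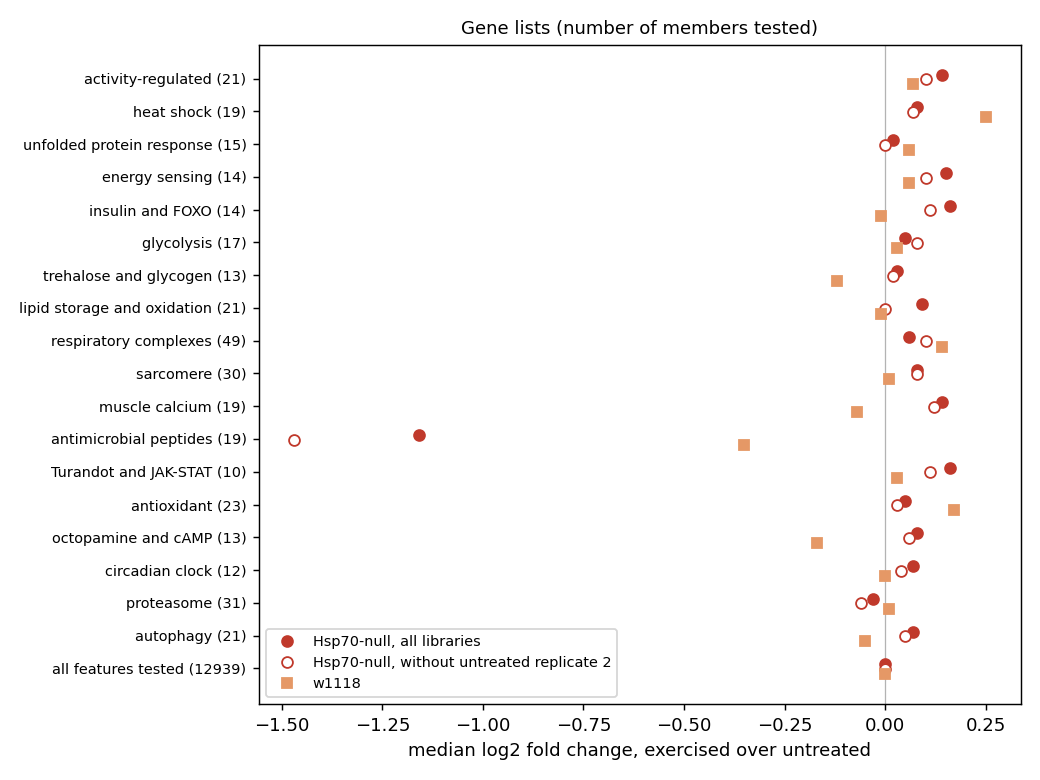
Median log2 fold change of exercised over untreated legs for 18 gene lists and for all features, in Hsp70-null with all libraries (filled circles), in Hsp70-null without untreated replicate 2 (open circles) and in w1118 (squares), with the number of members tested in brackets. With all libraries the Hsp70-null medians of the other lists lie between -0.03 and 0.16, and the antimicrobial peptides lie at -1.16.

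In w1118 the same exercise gave 52 calls, 0.402% of the features, with 40 higher and 12 lower. The count was 21 and 24 without exercised w1118 replicates 3 and 4, and 13, 13 and 18 without untreated w1118 replicates 1, 3 and 4. Of the 52, 4 were among the 6 Hsp70-null calls (Hr38, CG3764, CenG1A and sty), which is 4 of 6 and 4 of 52. Hr38 was at 63.7, 96.8, 93.0 and 93.2 CPM in exercised w1118 legs and at 28.1, 29.6, 15.5 and 18.8 CPM in untreated w1118 legs, a log2 fold change of 1.91 (SE 0.23). The difference between the strains in its response was -0.24, with a 95% interval of -0.88 to 0.40 (adjusted p = 0.793). For Mrtf, called in Hsp70-null alone, the w1118 log2 difference was 0.17 and the difference between strains 0.32 (95% interval 0.04 to 0.59, adjusted p = 0.206), so a strain difference was not called.

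The 52 features called in w1118 mostly pointed the same way in Hsp70-null legs, at a smaller size. Of the 40 higher ones 39 were also higher in Hsp70-null, and of the 12 lower ones 10 were also lower. The 40 are not all separate measurements. They include chk with CG45092, which had the same counts, Hsp22 with CG4456, whose values matched, and CG3764 with the overlapping mir-2500. The choice of features by their w1118 values favours larger w1118 sizes, so the sizes are not tested against each other. Over all 8624 features of at least 5 CPM the effects in the strains correlated at a Spearman rho of -0.063 and a Pearson r of -0.866 across features. Without the 3 libraries of high testis RNA these were 0.081 and -0.49 over 8621 features. Both sets were chosen by the mean over the 8 Hsp70-null libraries, untreated replicate 2 included. Testis RNA was high in untreated Hsp70-null replicate 2 and in exercised w1118 replicate 1, on opposite sides of the comparisons. Its part in these correlations was not tested, so they do not show whether the strains respond alike or oppositely. The median log2 fold change of the 40 was 0.28 in Hsp70-null and 0.81 in w1118, and of the 12 it was -0.11 in Hsp70-null and -0.48 in w1118. The 3 that differed in sign, named after their values were seen, were CG4269 (-0.23 in Hsp70-null, 1.76 in w1118), CG16908 (0.03 in Hsp70-null, -0.45 in w1118) and CG15036 (0.12 in Hsp70-null, -2.57 in w1118). None of them was called in Hsp70-null, and each changed sign there in at least 1 other setting, CG4269 to 0.06 without untreated replicate 1, CG16908 to -0.01 without untreated replicate 2 and CG15036 to -0.03 without untreated replicate 1.

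Among the most significant w1118 calls, CG34256 was at 18.6, 16.1, 25.0 and 24.6 CPM in exercised Hsp70-null legs and at 17.8, 13.7, 18.7 and 18.7 CPM in untreated Hsp70-null legs. In w1118 it was at 2.67, 3.41, 4.62 and 2.11 CPM in exercised and 1.18 to 1.43 CPM in untreated legs. CG10211 was at 53.6 to 70.5 CPM in exercised and 31.0 to 56.7 CPM in untreated Hsp70-null legs, against 47.0 to 66.5 CPM in exercised and 18.4 to 32.8 CPM in untreated w1118 legs. Their groups overlapped in Hsp70-null and did not in w1118. Socs36E, a feedback inhibitor of JAK-STAT signalling called in w1118 with a log2 fold change of 0.76, differed by 0.21 in Hsp70-null (adjusted p = 0.652). Of the 5 w1118 calls with the lowest p that were lower, AdamTS-A, CG15528, CG10936, CG32121 and fidipidine, the Hsp70-null differences were -0.18, -0.35, -0.08, -0.25 and -0.09 on the log2 scale. CG15528 was the one whose Hsp70-null ranges met without overlapping, at 45.7 to 53.5 CPM in exercised and 53.5 to 75.9 CPM in untreated legs.

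**Figure D5:**
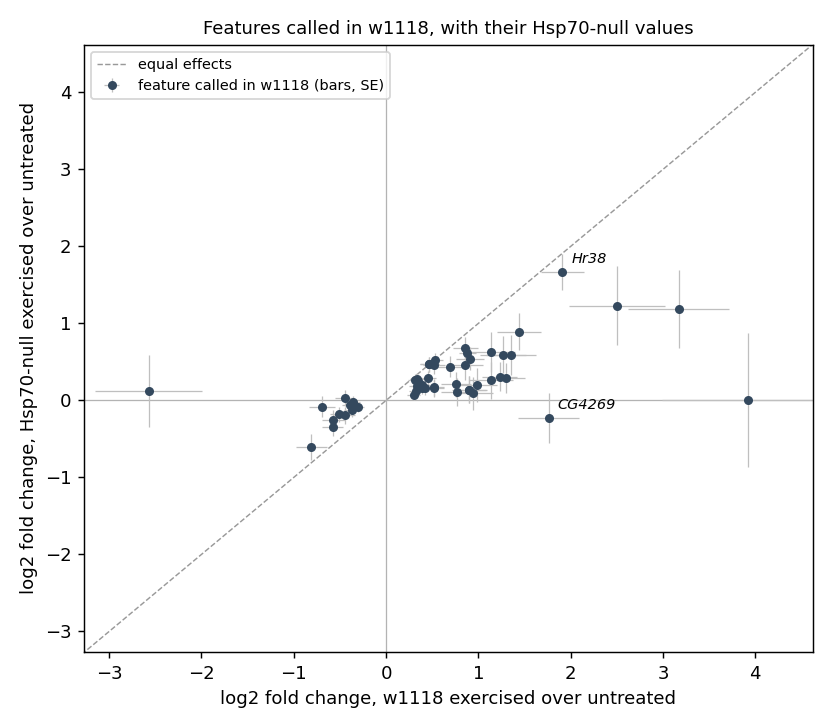
Log2 fold change of exercised over untreated legs in Hsp70-null (vertical) against w1118 (horizontal) for the 52 features called in w1118, with bars of 1 SE. Most points lie on the same side of 0 in both strains and closer to 0 in Hsp70-null than in w1118, Hr38 lies near that line at 1.67 and 1.91, and CG4269 lies at -0.23 and 1.76.

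The test of a strain difference in the exercise response called 1070 features (8.27%), of which 1021 had a lower value in Hsp70-null. By the 10-fold measure used above, 943 of the 1070 (88.1%) were high in untreated Hsp70-null replicate 2, and 845 were likewise high in exercised w1118 replicate 1 among the w1118 libraries. The lowest p-values were those of CG15711, CG7794 and CG4970. CG7794 was at 17.3 CPM in untreated Hsp70-null replicate 2 and 10.9 CPM in exercised w1118 replicate 1, and CG4970 at 10.8 and 5.92 CPM. In the other 14 libraries of day 7 neither exceeded 0.523 CPM.

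Without untreated Hsp70-null replicate 2 the edgeR interaction test called 0 features of 13133, with 1424 at an unadjusted p under 0.05, while DESeq2 called 133 and limma voom 0. Without exercised w1118 replicate 1 it also called 0. Leaving out untreated Hsp70-null replicates 1, 3 and 4 gave 1743, 1782 and 1720 calls, and leaving out exercised w1118 replicates 2 and 4 gave 1708 and 1740. Of the 52 features called in w1118, 7 were called for a strain difference with all libraries and 0 without untreated Hsp70-null replicate 2.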

How the data were processed

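RNA of fly legs was sequenced as strand-specific libraries of polyadenylated RNA, per the labels' protocols. The table the authors deposited holds raw read counts for 23932 features in 40 libraries, whole numbers with no normalization. HISAT2 2.1.0, kallisto 0.44.0 and build BDGP6 are named in the submitters' processing notes; their roles and the annotation are not given in the sources used here. Every column matched 1 sample title.

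Counts were tested with edgeR 4.0.16 in R 4.3.3 (quasi-likelihood F test, TMM scaling, filterByExpr by group, 12939 features). All 40 libraries entered 1 fit with a mean per group and 30 residual degrees of freedom. A call is an adjusted p under 0.05, by Benjamini-Hochberg over all features tested. Each standard error was derived from the fold change and its F statistic. Levels are CPM on TMM-scaled library sizes, which compare libraries and not genes of different length, and marker sums are CPM on total counts. A floor of 3 counts covers counting error only. The test was checked on simulated data with the same spread for all features and no library high in testis RNA. The spread set there was lower than the common biological coefficient of variation of 0.4832 fitted to these data. That check does not cover the spread of these data or libraries such as untreated replicate 2.

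The named features were every call, the 8 per direction with the lowest p among those of at least 5 CPM with no overlap, the 5 per direction called without untreated replicate 2, the 3 lowest p of the interaction, the 5 per direction called in w1118, up to 4 abundant members and the calls of each of 18 lists, the deleted genes and 4 testis markers. Other names are marked as chosen after their values were seen. Members and lists were chosen with earlier results of these data known. No replicate pair looked like the same library (chi-square per degree of freedom 36.3 to 195). Alternatives used DESeq2 1.42.0 and limma 3.58.1. Features that overlap on 1 strand can carry the same reads. Coordinates are from the Ensembl BDGP6.54 annotation, matched by FlyBase identifier for 23851 features.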

Additional observations from a re-analysis of the deposited data

Results flagged for a closer look

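A value was marked when 1 of 4 libraries lay so far from the others that its gap to the nearest, divided by the range of the group, exceeded Dixon's critical value. Chance marks about 1 in 20 groups, and 67 features and 10 marker sums were examined in each of 2 groups. Of the marks in untreated legs, those for high values in replicate 2 were 0.983 for CG15711, 0.996 for CG42559, CG42560 and S-Lap1, 0.991 for COX4L, 0.93 for Uch-L5, 0.997 for Mst84Dc and CG7794, 0.976 for CG4970, 0.996 for S-Lap7, 0.992 for loopin-1, 0.993 for S-Lap2, 0.994 for Pglym87, 0.891 for Hsp27, 0.838 for Hr38 and 0.995 for the testis marker sum. Pdk1 was low in that library (0.863). Other marks in untreated legs were kay in replicate 1 (0.843), AttD and Ldh in replicate 3 (0.884 each), and Drs (0.913) and the eye marker sum (0.916) in replicate 4.

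In exercised legs replicate 4 was high in Hsp70Bb (0.887), Hsp27 (0.926), S-Lap7 (1.0, the only library with a count) and the gut marker sum (0.977). Replicate 1 was high in the eye marker sum (0.86), and replicate 3 in CG10211 (0.835).

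A strain difference in the exercise response, Hsp70-null minus w1118 on the log2 scale, was called by edgeR for 18 of the features named. Fitted values of features with no count in a group depend on the prior count and are not bounds. They were -12.86 for CG15711, -14.39 for CG42559 and CG42560, -11.21 for COX4L, -18.63 for Mst84Dc, -8.27 for CG7794, -13.33 for CG4970, -15.17 for S-Lap1, -22.78 for S-Lap7, -20.24 for loopin-1, -22.95 for S-Lap2 and -21.98 for Pglym87. Each of these was high in untreated Hsp70-null replicate 2. The others were -1.01 for CG34256, -0.92 for CG10211 and 0.61 for CG10936. CG4269, CG16908 and CG15036, chosen after their values were seen, had -1.99, 0.48 and 2.7. Without that replicate 0 features were called for a strain difference, with 1424 at an unadjusted p under 0.05, and DESeq2 called 133.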

How the results depend on the processing

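The number of Hsp70-null calls was 6, 6, 6 and 7 with RLE size factors, with at least 10 counts in every library, with robust empirical Bayes and with a replicate block. It was 139 by DESeq2 (31 higher, 108 lower), 13 by voom with sample weights, 3 with no filter, 1 in the 8 libraries alone, 2 with the testis marker sum as covariate and 2 to 43 without 1 library. In settings chosen after seeing the data it was 2 without the 3 libraries of high testis RNA and 2 with the testis sum without bol as covariate. Without untreated replicate 2 it was 86 by DESeq2 (17 higher, 69 lower), 8 by voom (7 higher, 1 lower), 2 with RLE and 2 in the 7 libraries alone. The w1118 calls numbered 213 (DESeq2), 146 (voom), 15 (8 libraries alone), 57 (replicate block) and 13 to 57 without 1 library. They were 21 and 24 without exercised replicates 3 and 4, and 13, 13 and 18 without untreated replicates 1, 3 and 4. The 1070 interaction calls became 243 (DESeq2), 0 (voom), 0 (at least 10 counts in every library), 0 (16 libraries of day 7 alone), 1 (replicate block), 0 (testis covariate, with or without bol), 0 (without the 3 libraries), and 0 to 1782 without 1 library. Without untreated Hsp70-null replicate 2 they were 133 (DESeq2), 0 (voom) and 0 (RLE). The cause of these moves was not tested. The setting without libraries over 10 times the testis median removes only untreated replicate 2. Replicate numbers pair no libraries in the labels, and deviations of same-numbered exercised and untreated Hsp70-null libraries correlated at 0.077, -0.043, -0.225 and 0.123. The replicate block ended 2 Hsp70-null calls, Mrtf and CG15711, and brought Pvr past the threshold (adjusted p = 0.016). Among uncalled features the log2 difference changed sign for CG10936 (0.03 without untreated replicate 1), kay (-0.01), Hsp83 (0.00), Mhc (-0.01) and Drs (0.26) without untreated replicate 4, and Hsp83 (0.07) without exercised replicate 1. It did so for Hsp26 (-0.17), DnaJ-1 (-0.13) and Hsp70Bb (-0.90) without exercised replicate 4, and for Hsp70Bb with voom (-0.10), the replicate block (-0.12) and voom without untreated replicate 2 (-0.06). Hsp27 was at 0.34 with the testis covariate, 0.45 with that without bol, 0.43 without untreated replicate 2, 0.43 without the 3 libraries, and 0.43 (DESeq2), 0.12 (voom), 0.43 (RLE) and 0.42 (7 libraries alone) without untreated replicate 2. Without 1 library in turn the log2 differences ran between -0.15 and 0.03 for CG10936, -0.90 and 1.15 for Hsp70Bb, -0.01 and 0.16 for kay, -0.26 and 0.07 for Hsp83, -0.01 and 0.25 for Mhc, -0.80 and 0.26 for Drs, -0.17 and 0.38 for Hsp26, -1.17 and 0.43 for Hsp27, and -0.13 and 0.27 for DnaJ-1. CG4269 ran between -0.37 and 0.06, CG16908 between -0.04 and 0.12 and CG15036 between -0.03 and 0.36. CG16908 was at -0.00 with no filter, -0.01 with the testis covariate without bol, -0.02 without the 3 libraries, and -0.01 (DESeq2), -0.02 (RLE) and -0.03 (7 libraries alone) without untreated replicate 2. CG15036 was at -0.13 with voom and -0.19 with voom without that replicate. For features under 5 CPM, depth limits the precision.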

Other observations

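Several chaperone genes were highest in the libraries numbered 4 in more than 1 group of day 7. Hsp68 was at 95.3 CPM in exercised Hsp70-null replicate 4 and at 35.8 CPM in untreated Hsp70-null replicate 4, and at 99.2 and 38.3 CPM in exercised and untreated w1118 replicate 4. The other 3 libraries of each w1118 group were at 28.8 to 54.6 CPM in exercised and 16.8 to 20.7 CPM in untreated legs. DnaJ-1 was at 340 and 256 CPM in exercised and untreated Hsp70-null replicate 4 and at 348 and 223 CPM in exercised and untreated w1118 replicate 4, the highest of each group. In untreated Hsp70-null legs Hsp68 was highest in replicate 2, at 41.9 CPM. The pattern was chosen after the values were seen, and the labels give no batch to set beside it.

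CG34256 differed between strains at rest far more than with exercise, at 13.7 to 18.7 CPM in untreated Hsp70-null legs and 1.18 to 1.43 CPM in untreated w1118 legs. AttD differed the other way, at 1.04 to 11.2 CPM in untreated Hsp70-null legs and 15.1 to 27.8 CPM in untreated w1118 legs.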
